A study of Mus musculus with 13 samples.

Results

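Gene expression was compared between leukemic hematopoietic stem and progenitor cells (HSPCs) that carry mutant p53 and oncogenic Nras (NPmut) and control HSPCs. The comparison holds 7 of the 13 bulk RNA-seq libraries of the series, 4 from NPmut mice and 3 from control mice, chosen by genotype and treatment alone. The other 6 libraries, 3 p53mut and 3 NrasG12D, enter the same statistical fit and are otherwise given as levels. Each library was made from 50000 sorted Lin- cKit+ bone marrow cells of 1 mouse with the SMARTer stranded pico kit.

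NPmut mice had the genotype Mx1-Cre; p53 R172H/+; Nras G12D/+, with both mutant alleles behind a loxP-flanked stop at their own loci. They received no pI-pC and were moribund with leukemia when their marrow was taken. Control mice were Mx1-Cre alone and received 100 µg pI-pC by intraperitoneal injection, 3 times every other day from about 6 weeks of age. The p53mut mice (Mx1-Cre with p53 R172H/+) and NrasG12D mice (Mx1-Cre with Nras G12D/+) received the same pI-pC treatment. Per the methods of the study, controls were matched to the leukemic mice in age. All 7 mice share Mx1-Cre, which interferon induces. In NPmut mice recombination came from the Cre activity present without injection, so the share of recombined cells was not set by the experimenter. Genotype, disease and pI-pC differ between the groups together, and their contributions cannot be told apart.

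Stem cells at the top of blood formation keep themselves in check through transcription factors and receptors for niche signals, and their progeny turn toward megakaryocytes, red cells, mast cells, lymphocytes or the myeloid line of neutrophils, monocytes and dendritic cells. NRAS is a small GTPase that passes signals from growth factor receptors to the MAP kinase cascade, whose nuclear end includes the immediate-early transcription factors. p53 is a transcription factor that stops division or starts cell death after damage, and the R172H mutant has lost much of that activity.

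The libraries held 19970810, 29124022, 18659754, and 12576174 counts in NPmut mice 1 to 4 and 16891496, 16016795, and 18383281 in control mice 1 to 3. Levels are in CPM, the counts of a gene relative to the library total, scaled with TMM factors. Levels are listed in the order of NPmut mice 1 to 4 and then control mice 1 to 3. The markers of the sort were present. Kit, the receptor of the gate, stood at 370, 288, 450, and 379 CPM in NPmut mice 1 to 4 against 568, 505, and 546 CPM in control mice 1 to 3 (log2 fold change -0.54, SE 0.15, adjusted p = 0.0322). The 2 groups do not overlap in Kit, with each NPmut mouse under each control mouse. Ptprc, the pan-leukocyte phosphatase CD45, was at 265, 195, 214, and 217 against 224, 179, and 205 CPM. Markers of lineages outside the gate differed in level. The NPmut and control means were 0.00964 and 0.164 CPM for the T cell gene Cd3e, 0.146 and 0.233 CPM for the neutrophil gene Ly6g, and 0.322 and 0.519 CPM for the NK cell gene Klrb1c. For stroma and vessel wall they were 0.281 and 0.273 CPM for Col1a1 and 0.207 and 0.429 CPM for Cdh5. Other such markers stood at higher levels than these in both groups. The NPmut and control means were 18.2 and 11.2 CPM for the eosinophil gene Epx and 43.9 and 59.8 CPM for the lymphocyte gene Nkg7. For the neutrophil gene S100a9 they were 55.1 and 44.4 CPM, and for the stromal gene Pdgfrb 37.4 and 26.6 CPM. The groups overlap in Epx and S100a9, and the Nkg7 mean is lower in NPmut.

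Some libraries stand apart. NPmut mouse 2 had the deepest library, a mitochondrial share of 12.3% (9.57, 10, and 9.95% in NPmut mice 1, 3, and 4, and 9.9, 9.25, and 8.32% in the controls), and a limma voom sample weight of 0.154 against 0.67 to 1.58 in the other 6. On the first axis of a principal component analysis, which holds 43.2% of the variance, it lay at 80.9, with the other NPmut mice at 30, 13.9, and 28.9 and the controls at -47.4, -45.5, and -60.8. The axis separates the groups with no overlap. NPmut mice differed from each other more than controls did, with a median SD over genes of 0.351 against 0.196 log2 CPM. Control mouse 1 and NPmut mice 3 and 4 were male by Y-linked genes and Xist, and the others female.

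The sum over 1983 olfactory and vomeronasal receptor genes, which blood cells are not known to use, also differed between the groups. It was 18.4, 48.5, 61.1, and 18.4 CPM in NPmut mice 1 to 4 and 143, 203, and 110 CPM in control mice 1 to 3, so each control library carried more of this background than each NPmut library. Genes with any count numbered 25000, 30558, 29361, and 22956 in NPmut and 32359, 33259, and 31013 in control libraries. The part of this background in falls of genes at low levels was not tested directly. A fit with the background as a term is given beside the results, and it shares much of its variation with the group difference.

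Of 17795 genes tested, 413 were higher in NPmut HSPCs (2.32%) and 656 lower (3.69%), or 6.01% in either direction. Differentially expressed genes (DEGs) are those that edgeR placed at an adjusted p under 0.05 with a 2-fold or larger difference. The median log2 fold change was 1.57 among the higher DEGs and -1.99 among the lower. Protein-coding genes made up 352 of the higher and 559 of the lower. In a plot of fold change against level, DEGs of both directions reach from low levels up to abundant genes, such as F13a1 and Irf8 among the higher and Angpt1 among the lower.

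**Figure D1:**
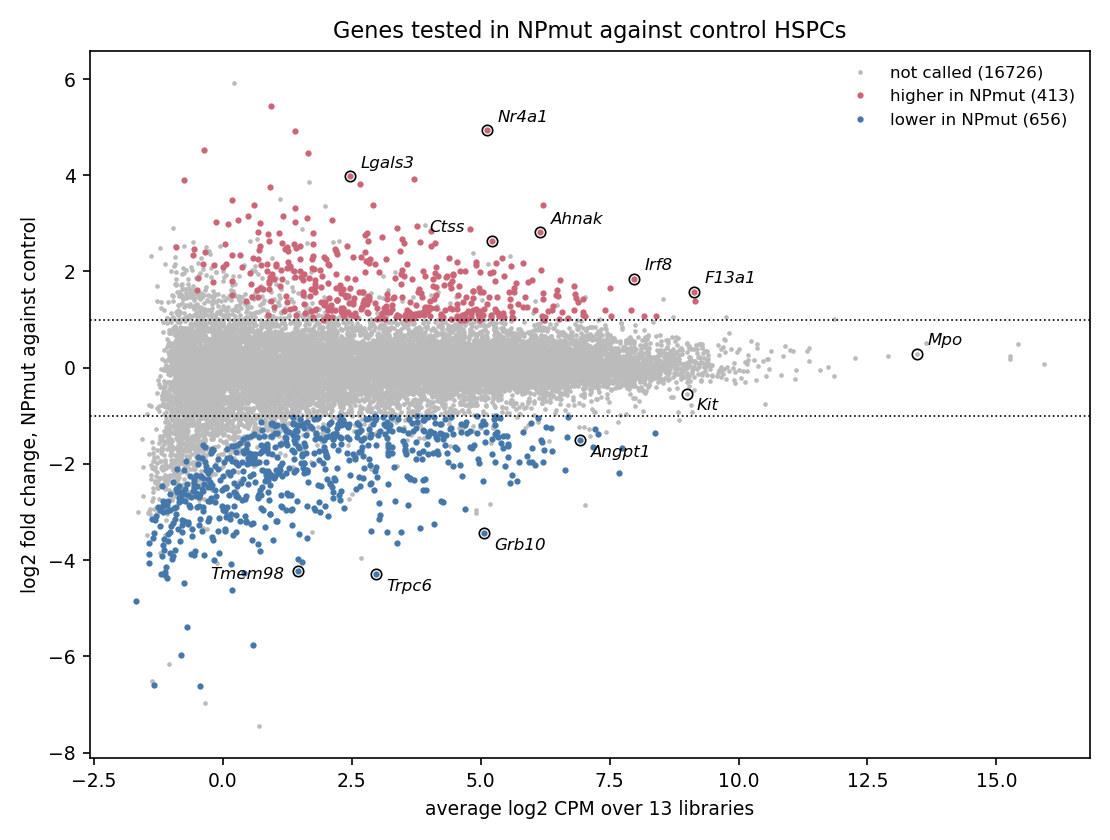
Log2 fold change of NPmut against control HSPCs plotted against average log2 CPM for each gene tested. Red marks higher DEGs, blue lower DEGs, and gray the rest. Dotted lines mark a 2-fold difference, and circles mark labelled genes.

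Without regard to p, 1859 genes (10.4%) had each NPmut mouse above each control mouse, and 2052 (11.5%) had each NPmut mouse below. Among the DEGs, the groups overlapped for 34 of the higher and 21 of the lower. NPmut mouse 1 exceeded every control in 413 higher DEGs, NPmut mouse 2 in 408, NPmut mouse 3 in 391, and NPmut mouse 4 in 406. Among the higher DEGs, NPmut mouse 3 was thus the mouse that most often did not exceed every control. Scaling by library totals moved the median of all genes from 0.014 to -0.11 and the DEG counts from 413 higher and 656 lower to 311 and 785, so the share of DEGs that were higher went from 38.6% to 28.4%. Leaving out control mouse 3 gave 217 higher and 369 lower DEGs, and the background term gave 338 and 230. Of the DEGs of the fit without that term, 152 higher and 128 lower were kept with it. A fit of the 7 libraries alone gave 305 higher and 346 lower DEGs, a minimum of 10 counts in every library 318 and 320, and no filter on low counts 542 and 1026.

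Among the largest rises, Lgals3 encodes galectin-3, a sugar-binding protein abundant in macrophages, and measured 11.2, 28.8, 7.88, and 9.08 CPM in NPmut mice 1 to 4 against 1.44, 1.11, and 0.204 CPM in control mice 1 to 3 (log2 fold change 3.98, SE 0.613, adjusted p = 0.0014). NPmut mouse 2 was the highest. Pdzd4, a PDZ domain protein, stood at 15.4, 13.7, 23.5, and 17.3 against 2.41, 1.79, and 0.815 CPM (log2 fold change 3.39, SE 0.456, adjusted p = 0.00053). Jaml, an adhesion molecule that leukocytes use to cross epithelia, was at 7.43, 8.37, 8.1, and 5.26 against 0.92, 1.11, and 0.51 CPM (log2 fold change 3.11, SE 0.436, adjusted p = 0.000653). Gem, a small GTP-binding protein that restrains calcium channels, was at 25.8, 10.9, 29.7, and 34.7 against 2.36, 3.27, and 4.13 CPM (log2 fold change 2.94, SE 0.379, adjusted p = 0.000507). NPmut mouse 3 is among the 2 highest mice in each of these 3 genes. Ahnak, a very large scaffold protein under the plasma membrane, reached 231, 94.9, 127, and 180 against 27.4, 20.9, and 18.9 CPM (log2 fold change 2.82, SE 0.282, adjusted p = 0.000105). Its lowest NPmut value was in mouse 2.

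Gpr183, a receptor for oxysterols that guides immune cells, measured 19.2, 25.5, 6.76, and 10.2 CPM in NPmut mice 1 to 4 against 1.61, 2.53, and 2.45 CPM in control mice 1 to 3 (log2 fold change 2.81, SE 0.453, adjusted p = 0.00166), and Tmem178, a membrane protein of the endoplasmic reticulum, 4.85, 7.64, 3.65, and 2.63 against 0.23, 0.803, and 0.968 CPM (log2 fold change 2.80, SE 0.535, adjusted p = 0.00438). Gpr183 missed the thresholds with the background term (adjusted p = 0.0766). Nr4a1 and Pmaip1 also ranked among the largest rises and differ from the rest in that NPmut mouse 3 stayed close to the controls, as described below with their families.

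**Figure D2:**
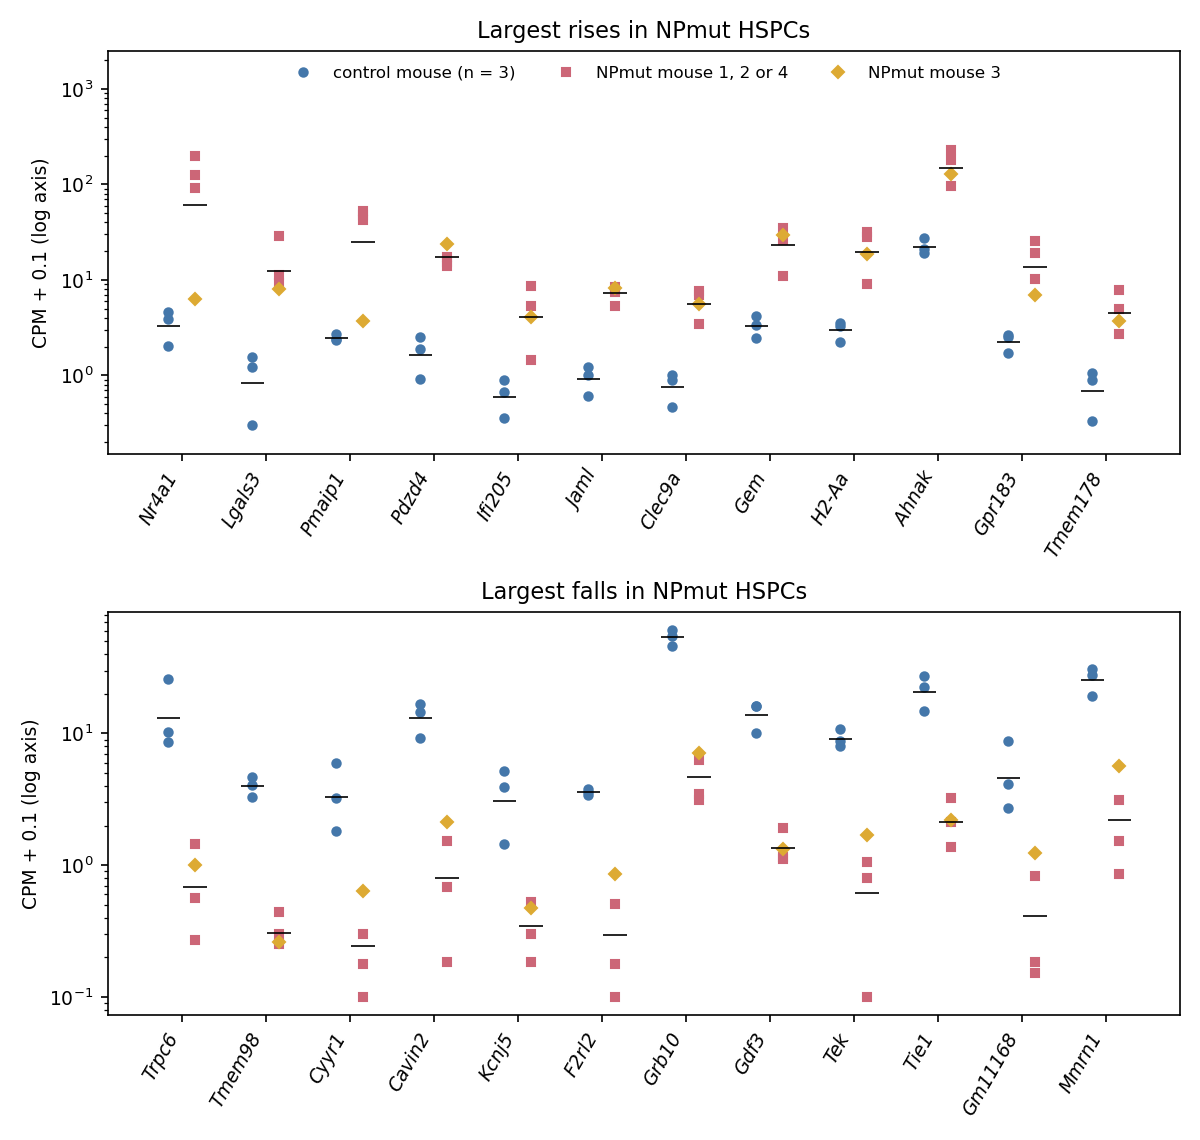
CPM of the 12 largest rises and 12 largest falls among DEGs named by rule, with a dot for each mouse. The rule took protein-coding DEGs without overlap, at an average log2 CPM of at least 1 and not named in the paper. Lines mark group means on the log scale, and diamonds mark NPmut mouse 3.

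Rises that met the same rule were also ranked by p-value. Genes the paper names, such as Nfkbia and Irf5, were left out of this ranking. Those with the smallest p-values included genes of the cytoskeleton, an ATP-gated channel and adhesion, with moderate fold changes. Fgd2, an exchange factor that activates the GTPase Cdc42, measured 57.2, 59.2, 55.5, and 53.8 CPM in NPmut mice 1 to 4 against 21.5, 17.9, and 17.6 CPM in control mice 1 to 3 (log2 fold change 1.57, SE 0.138, adjusted p = 4.19e-05). P2rx7, an ion channel opened by extracellular ATP, was at 33.6, 24, 31.4, and 23.9 against 7.01, 7.35, and 6.68 CPM (log2 fold change 2.01, SE 0.189, adjusted p = 5.48e-05). Lsp1, an actin-binding protein of leukocytes, rose as well (log2 fold change 1.77, adjusted p = 5.48e-05), as did Ppp1r18, an actin-binding partner of protein phosphatase 1 (log2 fold change 1.27, adjusted p = 9.91e-05). Itgb7, the beta 7 integrin chain, was also in this ranking (log2 fold change 1.94, adjusted p = 0.000105). Each of these genes was a DEG in every alternative fit that tested it.

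Among the falls, Grb10 had the smallest p-value. This imprinted adaptor, which dampens insulin and IGF receptor signals, stood at 6.22, 3.36, 7.02, and 3.05 CPM in NPmut mice 1 to 4 against 45.8, 55.2, and 60.8 CPM in control mice 1 to 3 (log2 fold change -3.44, SE 0.246, adjusted p = 1.52e-05). NPmut mouse 3 was the highest of its group. Kcnj5, a potassium channel subunit, measured 0.202, 0.424, 0.375, and 0.0848 against 3.79, 1.36, and 5.1 CPM (log2 fold change -3.53, SE 0.485, adjusted p = 0.000547). Gdf3, a ligand of the TGF-beta family, measured 1.06, 1.81, 1.23, and 1.02 against 10, 16.1, and 16.1 CPM (log2 fold change -3.42, SE 0.359, adjusted p = 0.000105). Cyyr1, a small membrane protein rich in cysteine and tyrosine, was at 0.202, 0.0771, 0.536, and 0 against 1.72, 5.87, and 3.16 CPM (log2 fold change -4.04, SE 0.657, adjusted p = 0.00171). The predicted gene Gm11168 was at 0.0505, 0.733, 1.13, and 0.0848 against 4.02, 8.65, and 2.6 CPM (log2 fold change -3.26, SE 0.661, adjusted p = 0.00661). Cyyr1 and Gm11168 missed the thresholds with the background term (adjusted p = 0.104 to 0.985). For Gm11168 the log2 fold change with that term was 0.01, so its direction was not kept.

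Tmem98, a membrane protein, was also among the falls with small p-values (log2 fold change -4.22, adjusted p = 5.48e-05). Dach1, a nuclear corepressor, was at 22.6, 17.7, 27.8, and 26.6 CPM in NPmut mice 1 to 4 against 96.1, 69, and 88.3 CPM in control mice 1 to 3 (log2 fold change -1.84, SE 0.16, adjusted p = 4.19e-05). Pde5a, the enzyme that breaks down cyclic GMP, fell (log2 fold change -2.31, adjusted p = 5.48e-05), as did Zfp462, a zinc finger protein of chromatin (log2 fold change -2.41, adjusted p = 7.81e-05). Scarf1, a scavenger receptor, fell too (log2 fold change -2.55, adjusted p = 7.81e-05), and so did Plxnc1, the receptor of semaphorin 7A (log2 fold change -1.43, adjusted p = 7.57e-05). Each gene of this paragraph was a DEG in every alternative that tested it.

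Across 40 gene lists, the share of DEGs was uneven. Over all genes tested, 2.32% were higher and 3.69% lower, and the counts of each list are to be read beside these shares. Stem cell, megakaryocyte, red cell and mast cell lists held falls, monocyte, dendritic cell, MHC class II and immediate-early lists held rises, and the lists for cell division and leukemia drivers held few DEGs or none. Some genes are members of several lists, so a DEG can be counted in each. Nr4a1 is in the monocyte and immediate-early lists, Mmrn1 in the megakaryocyte and matrix lists, and Pmaip1 in the p53 and BCL-2 lists. The lists were chosen with earlier results of these data known, so their counts are a description. In bulk RNA, fewer cells of a type and less RNA per cell cannot be told apart. The p-values measure the difference against the spread between mice.

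**Figure D3:**
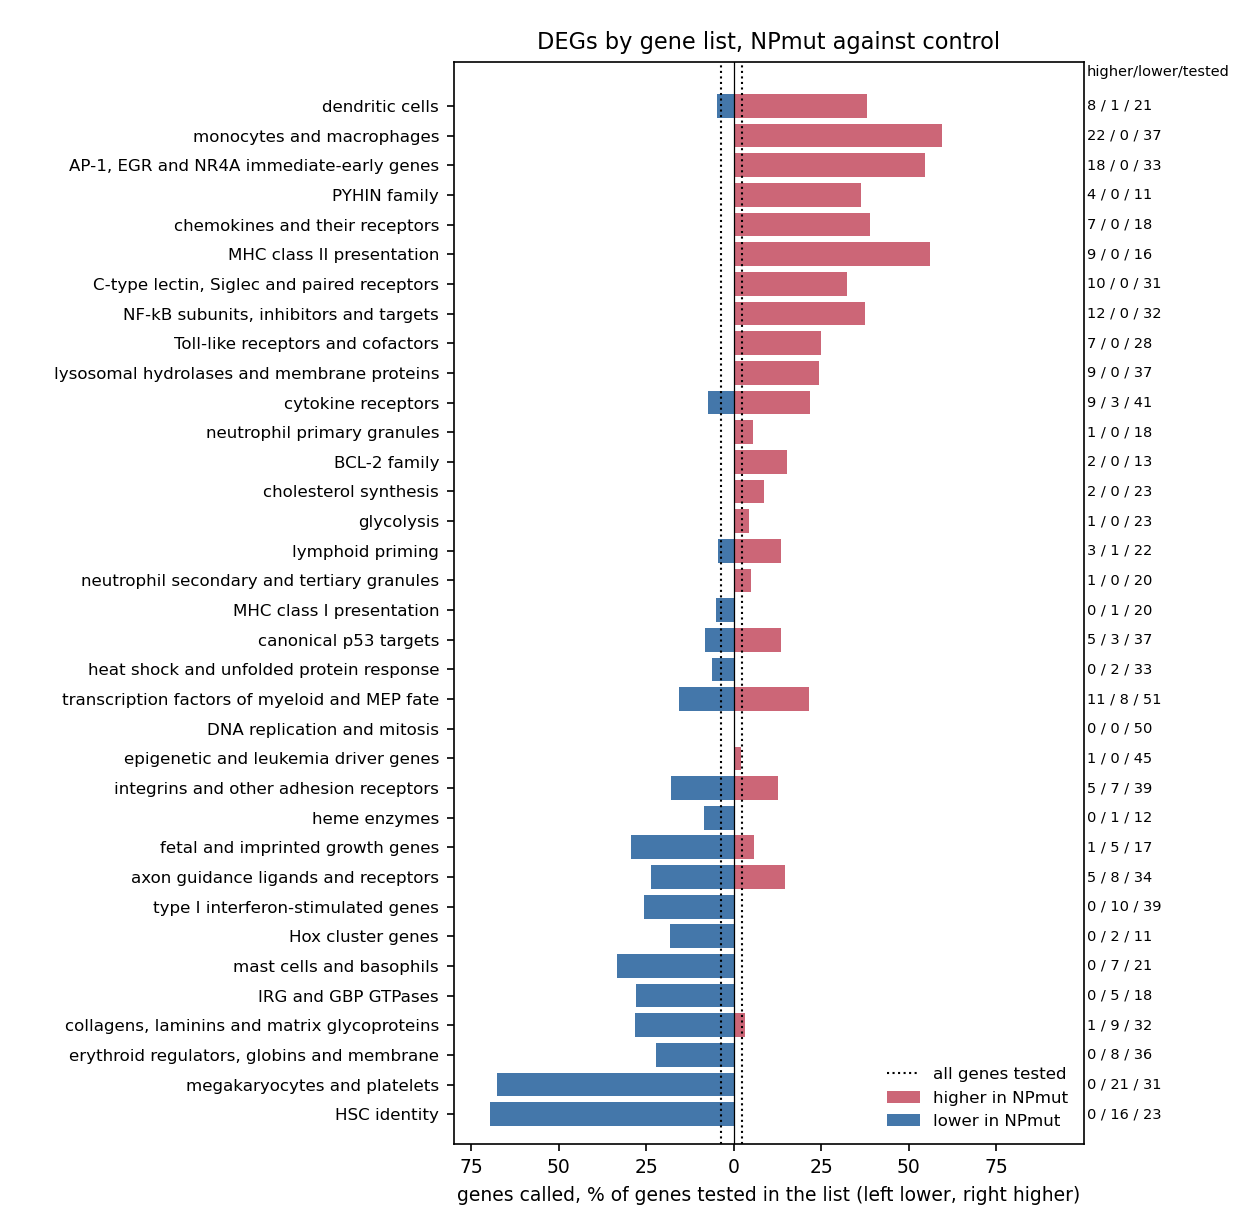
Share of each list's tested genes that were higher or lower DEGs in NPmut HSPCs. Numbers give higher, lower and tested genes, and dotted lines the shares over all genes tested.

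Many genes that define hematopoietic stem cells (HSCs) fell. Of 23 genes tested, 16 fell (median log2 fold change of the list -1.68, all genes 0.014). The summed level of the list was 471, 270, 707, and 382 CPM in NPmut mice 1 to 4 and 1235, 885, and 1178 CPM in control mice 1 to 3, with NPmut mouse 3 nearest the controls. Tie1, a receptor kinase of endothelium and stem cells, stood at 3.13, 1.27, 2.09, and 2.04 CPM in NPmut mice 1 to 4 against 27, 14.8, and 22.3 CPM in control mice 1 to 3 (log2 fold change -3.33, SE 0.273, adjusted p = 3.71e-05). Its partner Tek, the receptor of angiopoietin, was at 0.96, 0.694, 1.61, and 0 against 7.93, 8.71, and 10.7 CPM (log2 fold change -3.40, SE 0.497, adjusted p = 0.000994). Both are low in every NPmut mouse. Slamf1, the CD150 receptor used to sort stem cells, measured 0.96, 0.27, 0.697, and 0.0848 against 3.97, 3.03, and 5.61 CPM (7.99 times lower, adjusted p = 0.00289). Vwf, the adhesive protein von Willebrand factor that marks platelet-biased HSCs, was at 5.41, 2.2, 6.97, and 4.16 against 29.9, 29.5, and 47.1 CPM (log2 fold change -2.93, SE 0.313, adjusted p = 0.000155). NPmut mice 1 to 4 were again all under the controls for these markers. Tek missed the thresholds with the background term (adjusted p = 0.0577), with a log2 fold change of -3.34.

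Ligands and transcription factors of the stem cell list followed. Angpt1, the ligand of the Tek receptor, was at 50.5, 26.8, 86.5, and 33.3 CPM in NPmut mice 1 to 4 against 161, 108, and 150 CPM in control mice 1 to 3 (log2 fold change -1.50, SE 0.356, adjusted p = 0.0194). Meis1, a homeodomain partner of Hox proteins, measured 38.4, 16.4, 47.7, and 26.5 against 123, 78.2, and 119 CPM (log2 fold change -1.73, SE 0.298, adjusted p = 0.00339). The groups are separate in both genes, with NPmut mouse 2 lowest. Adgrg1, an adhesion receptor of stem cells, was not a DEG, at 236, 149, 396, and 202 against 557, 382, and 454 CPM (log2 fold change -0.92, SE 0.265, adjusted p = 0.0408), and its groups overlap. Other falls of the list, given by name alone, included Fgd5, Esam, Mecom, Mycn, Procr, Hlf, Prdm16, and Mllt3. Angpt1 was not a DEG without control mouse 1 or 3 or NPmut mouse 2 or with no filter (adjusted p = 0.0595 to 0.0777). Angpt1 and Meis1 missed the thresholds with the background term (adjusted p = 0.068 to 0.23). The number of falls in the list was 10 without control mouse 3 and 8 with the receptor background as a term, where the list median was -2.08 against -1.68.

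Megakaryocyte and platelet genes included several of the largest falls. Of 31 genes tested, 21 fell (median log2 fold change of the list -1.67, all genes 0.014). Trpc6, a cation channel opened by diacylglycerol, measured 1.36, 0.463, 0.912, and 0.17 CPM in NPmut mice 1 to 4 against 8.51, 10.1, and 25.9 CPM in control mice 1 to 3 (log2 fold change -4.29, SE 0.573, adjusted p = 0.000662). Cavin2, a coat protein of caveolae, was at 1.42, 0.579, 2.04, and 0.0848 against 14.4, 9.08, and 16.7 CPM (log2 fold change -3.64, SE 0.472, adjusted p = 0.00053). F2rl2, the protease-activated receptor PAR3, was at 0.404, 0.0771, 0.751, and 0 against 3.33, 3.52, and 3.72 CPM (log2 fold change -3.45, SE 0.546, adjusted p = 0.0014). All NPmut mice lie under all controls in each of these genes. Mmrn1, the factor V carrier of platelet granules, was at 3.03, 1.43, 5.52, and 0.763 against 27.5, 19.1, and 30.7 CPM (log2 fold change -3.24, SE 0.449, adjusted p = 0.000924). For Mmrn1 the gap to the controls was smallest in NPmut mouse 3.

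A receptor chain and a regulator of the lineage fell as well. Itga2b, the fibrinogen receptor chain CD41, measured 18.5, 7.98, 47.3, and 14.7 CPM in NPmut mice 1 to 4 against 97.5, 62.8, and 97 CPM in control mice 1 to 3 (log2 fold change -1.95, SE 0.48, adjusted p = 0.0243). The groups do not overlap. Zfpm1, the cofactor of GATA proteins also called FOG1, was at 60.2, 25.6, 123, and 115 against 252, 249, and 271 CPM (log2 fold change -1.67, SE 0.391, adjusted p = 0.0184), with all NPmut mice under the controls. By contrast, Nfe2, a leucine zipper factor of platelet release, and Fli1, an ETS factor, were not DEGs (log2 fold change -0.12 and 0.0097).

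Itga2b was not a DEG without control mouse 1 or 3 or NPmut mouse 1, 2, or 4, with no filter, or with the 7 libraries alone (adjusted p = 0.0507 to 0.0865). Zfpm1 was not a DEG without control mouse 1 or 3 or NPmut mouse 1, with no filter, or with the 7 libraries alone (adjusted p = 0.0508 to 0.0677). F2rl2, Mmrn1, Itga2b, and Zfpm1 missed the thresholds with the background term (adjusted p = 0.0665 to 0.273). The count of falls in this list was 13 without control mouse 3 and 5 with the background term, where the list median was -1.65 against -1.67.

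The promoters of the 4 largest megakaryocyte falls are shown because GATA and ETS factors are known regulators of the lineage. These genes were picked as falls, so their shared direction follows from the choice. The windows run from 250 bases before to 50 after the gene start, from RefSeq on GRCm38.p6, and read 5′ to 3′ on the gene's strand: Trpc6 at chr9:8543892-8544191, Cavin2 at chr1:51288876-51289175, F2rl2 at chr13:95696670-95696969, and Mmrn1 at chr6:60944067-60944366. Capitals mark the GATA letters AGATAA and the ETS letters GGAA, searched on both strands.
Trpc6: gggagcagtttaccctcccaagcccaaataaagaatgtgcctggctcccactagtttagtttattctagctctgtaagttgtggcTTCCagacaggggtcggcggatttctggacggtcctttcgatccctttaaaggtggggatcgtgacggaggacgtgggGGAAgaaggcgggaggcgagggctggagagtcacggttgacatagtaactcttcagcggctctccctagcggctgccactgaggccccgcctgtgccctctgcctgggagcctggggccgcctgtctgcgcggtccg
Cavin2: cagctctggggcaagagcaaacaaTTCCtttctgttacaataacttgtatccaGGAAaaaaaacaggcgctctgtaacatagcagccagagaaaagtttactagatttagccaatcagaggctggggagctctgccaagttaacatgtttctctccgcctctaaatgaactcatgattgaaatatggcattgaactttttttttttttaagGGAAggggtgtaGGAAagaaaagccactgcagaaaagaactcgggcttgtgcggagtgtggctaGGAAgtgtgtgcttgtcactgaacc
F2rl2: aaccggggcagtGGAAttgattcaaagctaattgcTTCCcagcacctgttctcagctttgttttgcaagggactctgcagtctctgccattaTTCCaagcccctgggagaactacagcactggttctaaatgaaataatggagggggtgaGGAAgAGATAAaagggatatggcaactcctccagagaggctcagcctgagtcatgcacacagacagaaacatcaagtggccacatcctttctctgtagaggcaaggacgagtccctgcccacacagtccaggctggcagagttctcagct
Mmrn1: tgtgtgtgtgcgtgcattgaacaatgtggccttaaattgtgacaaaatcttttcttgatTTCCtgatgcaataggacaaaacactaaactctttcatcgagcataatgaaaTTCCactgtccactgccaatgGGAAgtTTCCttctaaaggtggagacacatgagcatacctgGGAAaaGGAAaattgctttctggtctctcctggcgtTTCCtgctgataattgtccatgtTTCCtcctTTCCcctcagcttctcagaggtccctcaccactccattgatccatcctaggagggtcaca
AGATAA occurs in the F2rl2 window, in 11.2% of all 32851 windows, and in 7.07% of the 13287 windows of genes tested. GGAA occurs 2 times in Trpc6, 5 in Cavin2, 4 in F2rl2, and 9 in Mmrn1, and in 96% of all windows at least 1 time. A match describes the letters alone.

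Red cell genes were also among the falls. Of 36 genes tested, 8 fell (median log2 fold change of the list -1.16, all genes 0.014). The list summed to 1418, 1079, 2134, and 2340 CPM in NPmut mice 1 to 4 and 2549, 3457, and 3601 CPM in control mice 1 to 3. Gata1, the master factor of red cells and megakaryocytes, measured 11.1, 4.36, 24.6, and 20.2 CPM in NPmut mice 1 to 4 against 41.9, 56.1, and 57.7 CPM in control mice 1 to 3 (log2 fold change -1.80, SE 0.427, adjusted p = 0.0194). Klf1, the globin gene activator, measured 18.7, 8.29, 31, and 50.1 against 64.4, 95.2, and 93 CPM (log2 fold change -1.66, SE 0.441, adjusted p = 0.0341). Tfr2, a transferrin receptor that tunes erythropoietin signals, was at 13.8, 7.02, 24, and 26.9 against 50.5, 54.3, and 64.9 CPM (log2 fold change -1.67, SE 0.34, adjusted p = 0.00817). NPmut mice lie under controls in all 3. Car2, a carbonic anhydrase, was at 119, 64.9, 273, and 221 against 353, 478, and 475 CPM (log2 fold change -1.36, SE 0.376, adjusted p = 0.0386), and its relative Car1 was not a DEG (log2 fold change -1.12, adjusted p = 0.118). Mfsd2b, the exporter of sphingosine 1-phosphate in red cells and platelets, fell (log2 fold change -1.72, adjusted p = 0.0475). Among heme enzymes, Cpox, which acts late in the pathway, fell (log2 fold change -1.02, adjusted p = 0.015).

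Gata1 was not a DEG without control mouse 2 or 3 or NPmut mouse 1, with no filter, or with the 7 libraries alone (adjusted p = 0.0558 to 0.0757). Klf1 and Car2 were not DEGs without control mouse 1, 2, or 3 or NPmut mouse 1, with no filter, or with the 7 libraries alone (adjusted p = 0.0529 to 0.124). Mfsd2b was not a DEG without control mouse 1, 2, or 3 or NPmut mouse 1 or 4, with no filter, or with the 7 libraries alone (adjusted p = 0.0613 to 0.162). Cpox was not a DEG without control mouse 2 or 3 or NPmut mouse 1 or 2, with no filter, with the 7 libraries alone, or with limma voom (adjusted p = 1.48e-10 to 0.0651, fold change under 2 where p passed). Gata1, Klf1, Tfr2, Car2, Mfsd2b, and Cpox missed the thresholds with the background term (adjusted p = 0.0804 to 0.249). Their log2 fold changes with it were -1.98, -2.52, -2.18, -1.44, -1.96, and -1.46, in that order. The 8 falls in the red cell list were 3 without control mouse 2 or 3 or NPmut mouse 1, and 13 without NPmut mouse 4. With the background term edgeR called 0, where 24 of the list had an unadjusted p under 0.05 without it and DESeq2 called 8, and the list median went from -1.16 to -1.53.

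Mast cell and basophil genes contributed 7 falls of 21 tested (median log2 fold change -0.96), beside 3.69% lower of all genes. Slc18a2, the transporter that loads histamine into granules, measured 3.34, 1.35, 7.02, and 1.02 CPM in NPmut mice 1 to 4 against 24.5, 13, and 29.8 CPM in control mice 1 to 3 (log2 fold change -2.80, SE 0.515, adjusted p = 0.00545). Rab27b, a GTPase of granule release shared with platelets, measured 2.63, 1.16, 3.11, and 0.254 against 12.5, 9.52, and 16 CPM (log2 fold change -2.78, SE 0.455, adjusted p = 0.00208). Il1rl1, the receptor of interleukin 33, was at 9.35, 3.82, 21.4, and 13.7 against 32.8, 33.7, and 38.1 CPM (log2 fold change -1.54, SE 0.403, adjusted p = 0.0292). Every NPmut value is under every control value in these genes. Clnk, an adaptor of mast cell receptors, fell (log2 fold change -1.64, adjusted p = 0.00324). Gata2, the factor that stem cells and mast cells share, was at 50.5, 21.8, 86.7, and 31.9 against 154, 123, and 171 CPM (log2 fold change -1.64, SE 0.364, adjusted p = 0.0142). Il1rl1 was not a DEG without control mouse 1, 2, or 3 or NPmut mouse 1 or 4, with no filter, or with the 7 libraries alone (adjusted p = 0.0504 to 0.103). Gata2 was not a DEG without control mouse 3 or with no filter (adjusted p = 0.0573 to 0.065). Slc18a2, Rab27b, Il1rl1, and Gata2 missed the thresholds with the background term (adjusted p = 0.0728 to 0.221). Without control mouse 1 or 3 or NPmut mouse 1 or 4, 4 genes of the list fell, and 1 with the background term. The list median was -0.51 without control mouse 1, -0.60 without NPmut mouse 2, and -1.57 without NPmut mouse 3.

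Monocyte and macrophage genes rose in the largest number of any list. Of 37 genes tested, 22 rose (median log2 fold change of the list 1.49, all genes 0.014). Summed over the list, levels were 4470, 6277, 3619, and 3528 CPM in NPmut mice 1 to 4 and 1751, 1843, and 1560 CPM in control mice 1 to 3, with NPmut mouse 2 highest and all NPmut mice above the controls. Ctss, a protease that prepares peptides for MHC class II, measured 68.2, 119, 77.6, and 46.5 CPM in NPmut mice 1 to 4 against 14.2, 14.3, and 8.97 CPM in control mice 1 to 3 (log2 fold change 2.64, SE 0.287, adjusted p = 0.000169). F13a1, the clotting factor subunit made by monocytes, measured 1011, 1188, 1027, and 903 against 328, 389, and 321 CPM (log2 fold change 1.58, SE 0.227, adjusted p = 0.000877). Irf8, the factor that directs progenitors to monocytes and dendritic cells, was at 490, 616, 390, and 445 against 130, 141, and 134 CPM (log2 fold change 1.85, SE 0.231, adjusted p = 0.00044). No NPmut mouse overlaps the controls in these genes. Csf1r, the receptor of macrophage colony-stimulating factor, rose (log2 fold change 1.49, adjusted p = 0.0024), as did Irf5, an interferon regulatory factor of macrophages (log2 fold change 2.20, adjusted p = 0.000103).

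Ly86, which partners a Toll-like receptor homolog, was at 72.2, 130, 70.5, and 49 CPM in NPmut mice 1 to 4 against 16.5, 20.8, and 16.4 CPM in control mice 1 to 3 (log2 fold change 2.17, SE 0.337, adjusted p = 0.00171). All NPmut mice stand above the controls. The adaptors Tyrobp and Fcer1g, the pore protein Mpeg1, and the oxidase subunit Cybb were among the other rises of the list. Lyz2, lysozyme of mature myeloid cells, was more scattered and not a DEG, at 139, 298, 79, and 111 against 106, 64.2, and 63.4 CPM (log2 fold change 1.01, SE 0.375, adjusted p = 0.111). The count of rises was 18 with the background term, and leaving out a mouse gave 16 to 26.

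Beside 2.32% higher of all genes, neutrophil lists gave single rises. Of 18 primary granule genes 1 rose, and of 20 secondary and tertiary granule genes 1 rose. Mpo, the peroxidase of primary granules, was at 12224, 17944, 11841, and 10645 CPM in NPmut mice 1 to 4 against 10448, 12176, and 9690 CPM in control mice 1 to 3 (log2 fold change 0.29, SE 0.241, adjusted p = 0.49). Elane, neutrophil elastase, was at 1303, 2591, 1210, and 1575 against 987, 1349, and 1053 CPM (log2 fold change 0.56, SE 0.341, adjusted p = 0.33). In both genes NPmut mouse 2 is the highest and the groups overlap. The rises were Hp, haptoglobin (log2 fold change 1.19, adjusted p = 0.0147), and Mmp8, a collagenase of granules (log2 fold change 1.31, adjusted p = 0.0348). Hp was not a DEG without control mouse 1 or 3 or NPmut mouse 2, with no filter, or with limma voom (adjusted p = 0.0151 to 0.0708, fold change under 2 where p passed). Mmp8 was not a DEG without control mouse 2 or 3 or NPmut mouse 1 or 2, with library totals, or with the 7 libraries alone (adjusted p = 0.0554 to 0.116). Mmp8 missed the thresholds with the background term (adjusted p = 0.296).

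Dendritic cell genes rose in part. Of 21 genes tested, 8 rose and 1 fell (median log2 fold change of the list 1.50, all genes 0.014). Clec9a, the receptor with which cross-presenting dendritic cells sense dead cells, measured 7.48, 6.83, 5.47, and 3.39 CPM in NPmut mice 1 to 4 against 0.805, 0.371, and 0.917 CPM in control mice 1 to 3 (log2 fold change 3.03, SE 0.527, adjusted p = 0.0024). Siglech, a receptor of plasmacytoid dendritic cells, measured 2.38, 2.39, 2.57, and 2.04 against 0.287, 0, and 0.306 CPM (log2 fold change 3.49, SE 0.697, adjusted p = 0.0057). Id2, an inhibitor of helix-loop-helix factors, was at 13.6, 19.4, 16.7, and 8.48 against 3.74, 3.83, and 2.14 CPM (log2 fold change 2.17, SE 0.32, adjusted p = 0.000894). The groups are separate in all 3, with NPmut mouse 4 lowest of the 4 for Clec9a. Flt3, the receptor kinase of early progenitors, was at 163, 109, 252, and 112 against 99.4, 54.4, and 61.5 CPM (log2 fold change 1.15, SE 0.313, adjusted p = 0.0336). Itgax, the CD11c integrin chain, rose (log2 fold change 2.09, adjusted p = 0.0212), and Zbtb46, a zinc finger factor of classical dendritic cells, fell (log2 fold change -1.09, adjusted p = 0.0265). Flt3 was not a DEG without control mouse 2 or 3 or NPmut mouse 1 or 3, with library totals, with no filter, or with the 7 libraries alone (adjusted p = 0.0478 to 0.138, fold change under 2 where p passed). Itgax was not a DEG without control mouse 2 or 3 or NPmut mouse 1 (adjusted p = 0.0573 to 0.0947). Zbtb46 was not a DEG without control mouse 2 or 3 or NPmut mouse 1 or 2, with the 7 libraries alone, or with limma voom (adjusted p = 0.0188 to 0.113, fold change under 2 where p passed). Siglech, Flt3, Itgax, and Zbtb46 missed the thresholds with the background term (adjusted p = 0.086 to 0.186). Without NPmut mouse 1 the list had 4 rises, and with the background term 4.

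Lymphoid genes gave 3 rises and 1 fall of 22 tested (median log2 fold change 0.25), beside 2.32% higher and 3.69% lower of all genes. The 3 rises became 1 without control mouse 3 or NPmut mouse 1. Ighm, the immunoglobulin mu heavy chain whose germline RNA appears early, measured 224, 305, 184, and 149 CPM in NPmut mice 1 to 4 against 80.1, 90.7, and 71.6 CPM in control mice 1 to 3 (log2 fold change 1.42, SE 0.234, adjusted p = 0.00211), with all NPmut mice above the controls. Dntt, the polymerase that adds bases at antigen receptor joints, measured 109, 82.4, 136, and 47.5 against 43.9, 22.4, and 30 CPM (log2 fold change 1.55, SE 0.403, adjusted p = 0.0292). NPmut mouse 4 was nearest to the controls for Dntt. Tcf7, a factor of T cell commitment, rose (log2 fold change 1.05, adjusted p = 0.039), and Gata3, which also serves that lineage, fell (log2 fold change -1.29, adjusted p = 0.0271). Dntt was not a DEG without control mouse 2 or 3 or NPmut mouse 1 or 2, with no filter, or with limma voom (adjusted p = 0.0543 to 0.115). Tcf7 was not a DEG without control mouse 1, 2, or 3 or NPmut mouse 1 or 3, with library totals, or with the 7 libraries alone (adjusted p = 0.0519 to 0.15). Gata3 was not a DEG without control mouse 2 or 3 or NPmut mouse 3, with the 7 libraries alone, or with limma voom (adjusted p = 0.0542 to 0.137). Dntt and Tcf7 missed the thresholds with the background term (adjusted p = 0.104 to 0.224).

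Receptors of innate immunity rose in several families. Of 31 lectin, Siglec and paired receptor genes, 10 rose (median log2 fold change 0.90), and of 28 Toll-like receptor genes and cofactors, 7 rose (median 0.58). Of all genes, 2.32% were higher. Unc93b1, which carries nucleic acid-sensing Toll-like receptors to endosomes, measured 315, 447, 288, and 281 CPM in NPmut mice 1 to 4 against 107, 116, and 95.4 CPM in control mice 1 to 3 (log2 fold change 1.65, SE 0.203, adjusted p = 0.000345). Tlr2, a receptor of bacterial lipoproteins, measured 31.1, 34.7, 9.38, and 14.4 against 4.54, 5.62, and 6.17 CPM (log2 fold change 2.04, SE 0.404, adjusted p = 0.00605). Tlr13, a sensor of bacterial ribosomal RNA, was at 2.12, 2.04, 2.14, and 1.61 against 0.46, 0.124, and 0.153 CPM (log2 fold change 2.98, SE 0.476, adjusted p = 0.00145). The NPmut values exceed all control values in these genes.

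Among the lectin-type receptors, Cd300lg, a member of the CD300 family, measured 2.83, 5.59, 2.68, and 1.53 CPM in NPmut mice 1 to 4 against 0.287, 0.741, and 0.051 CPM in control mice 1 to 3 (log2 fold change 3.16, SE 0.728, adjusted p = 0.0127). Lilrb4a, an inhibitory receptor, was at 10.8, 3.55, 0.697, and 13.2 against 0.862, 0.618, and 0.612 CPM (log2 fold change 3.32, SE 0.762, adjusted p = 0.0136). The groups overlap in Lilrb4a and are separate in Cd300lg. Clec4a2, an inhibitory lectin of dendritic cells, rose (log2 fold change 1.94, adjusted p = 0.046). Cd300lg was not a DEG without control mouse 1 or 3 (adjusted p = 0.0557 to 0.0587). Lilrb4a was not a DEG without control mouse 2 or 3, with the 7 libraries alone, or with limma voom (adjusted p = 0.0568 to 0.195). Clec4a2 was not a DEG without control mouse 1, 2, or 3 or NPmut mouse 2 or 4, with library totals, with the 7 libraries alone, or with limma voom (adjusted p = 0.0569 to 0.15). Tlr2, Lilrb4a, and Clec4a2 missed the thresholds with the background term (adjusted p = 0.13 to 0.772). The sign of Lilrb4a turned with that term, to a log2 fold change of -0.47. Rises in the lectin list were 5 without control mouse 3 and 4 with the background term, and those in the Toll-like receptor list 3 with that term.

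PYHIN proteins, nuclear and cytosolic sensors of DNA, gave 4 rises of 11 tested (median log2 fold change 1.47), beside 2.32% higher of all genes. Ifi205 stood at 5.26, 8.45, 3.97, and 1.36 CPM in NPmut mice 1 to 4 against 0.575, 0.803, and 0.255 CPM in control mice 1 to 3 (log2 fold change 3.15, SE 0.649, adjusted p = 0.00688). Ifi209 stood at 103, 156, 84.8, and 87.6 against 23.7, 37.5, and 32.2 CPM (log2 fold change 1.79, SE 0.362, adjusted p = 0.00845). Each NPmut mouse is above each control in both. Ifi211 (log2 fold change 2.04, adjusted p = 0.0104) and Ifi204 (log2 fold change 1.83, adjusted p = 0.0431) rose too. Ifi211 was not a DEG without control mouse 3 (adjusted p = 0.0648). Ifi204 was not a DEG without control mouse 1, 2, or 3 or NPmut mouse 1 or 2, with library totals, with the 7 libraries alone, or with limma voom (adjusted p = 0.0529 to 0.152). Ifi204 missed the thresholds with the background term (adjusted p = 0.118). Without control mouse 3 the list had 2 rises. Its median was 0.83 without NPmut mouse 1 and 0.48 with the background term.

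Several MHC class II genes rose. Of 16 genes tested, 9 rose (median log2 fold change of the list 1.34, all genes 0.014). H2-Aa, an alpha chain, measured 27.7, 31.7, 18.7, and 8.99 CPM in NPmut mice 1 to 4 against 3.45, 3.15, and 2.14 CPM in control mice 1 to 3 (log2 fold change 2.91, SE 0.39, adjusted p = 0.00053). H2-Eb1, a beta chain, measured 18.1, 17.5, 9.28, and 9.08 against 1.84, 2.9, and 1.78 CPM (log2 fold change 2.64, SE 0.318, adjusted p = 0.000268). Cd74, the invariant chain that guards the groove, was at 75.8, 84.3, 49.1, and 24.5 against 6.61, 10.4, and 6.83 CPM (log2 fold change 2.88, SE 0.433, adjusted p = 0.00159). NPmut mouse 4 is the lowest of the NPmut mice in these genes and lies above the controls. Ifi30, a reductase that opens disulfides in antigens, rose (log2 fold change 1.66, adjusted p = 0.000155), as did the lysosomal protease Lgmn (log2 fold change 2.12, adjusted p = 0.0221). The other rises were H2-Ab1, H2-DMb1, Ctss, and Ciita, the coactivator that switches on class II genes. In MHC class I presentation, beside 3.69% of all genes, 1 of 20 fell, H2-Q7 (log2 fold change -1.33, adjusted p = 0.00105), whose reads may be shared with close paralogs. B2m, the light chain of class I, was at 504, 823, 490, and 327 against 500, 525, and 465 CPM (log2 fold change 0.11, SE 0.212, adjusted p = 0.787), with overlap. Lgmn was not a DEG without control mouse 1, 2, or 3 or NPmut mouse 1 or with the 7 libraries alone (adjusted p = 0.0528 to 0.0935). Lgmn and H2-Q7 missed the thresholds with the background term (adjusted p = 0.0927 to 0.116). The class II list had 6 rises with that term.

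Interferon-stimulated genes fell in part, in a comparison where the controls alone had received pI-pC, an inducer of interferon. Of 39 genes tested, 10 fell (median log2 fold change of the list -0.61, all genes 0.014). Oas2, which makes the activator of RNase L, measured 2.07, 1.27, 1.07, and 0.509 CPM in NPmut mice 1 to 4 against 4.89, 5.93, and 6.22 CPM in control mice 1 to 3 (log2 fold change -2.15, SE 0.334, adjusted p = 0.00118). Oasl2, a relative, measured 7.43, 5.28, 5.31, and 4.07 against 12.6, 15.2, and 15.6 CPM (log2 fold change -1.38, SE 0.223, adjusted p = 0.00155). Ddx58, the RNA sensor RIG-I, was at 11.3, 6.98, 10.5, and 8.48 against 20.1, 20.8, and 30 CPM (log2 fold change -1.34, SE 0.197, adjusted p = 0.00088). The groups do not overlap in these genes. Ifi44, a gene induced by interferon, fell as well (log2 fold change -1.46, adjusted p = 0.0211). Mean levels of Oas2 were 4.46 ± 0.977 CPM in p53mut and 21.3 ± 7.29 CPM in NrasG12D libraries, given here as levels with no test. Mice of both of these groups had also received pI-pC.

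Interferon-inducible GTPases of the IRG and GBP families had 5 falls of 18 tested (median log2 fold change -1.04), beside 3.69% lower of all genes. Tgtp2, an IRG protein that attacks parasite vacuoles, measured 8.69, 7.44, 17.9, and 3.82 CPM in NPmut mice 1 to 4 against 22.1, 22.4, and 28.6 CPM in control mice 1 to 3 (log2 fold change -1.35, SE 0.355, adjusted p = 0.028). NPmut mice lie under the controls. Iigp1, a relative, fell (log2 fold change -1.45, adjusted p = 0.0428), and so did Gm4951 (log2 fold change -2.74, adjusted p = 0.00326), whereas Gbp3 was not a DEG (log2 fold change 0.75, adjusted p = 0.0365). Ifi44 was not a DEG without control mouse 2 or 3 or with limma voom (adjusted p = 0.0574 to 0.116). Tgtp2 was not a DEG without control mouse 1, 2, or 3 or NPmut mouse 1 or 2, with no filter, or with the 7 libraries alone (adjusted p = 0.0621 to 0.124). Iigp1 was not a DEG without control mouse 1, 2, or 3 or NPmut mouse 1, 2, or 4, with the 7 libraries alone, or with limma voom (adjusted p = 0.0597 to 0.19). Ifi44, Tgtp2, Iigp1, and Gm4951 missed the thresholds with the background term (adjusted p = 0.068 to 0.463). The interferon-stimulated list had 6 falls without control mouse 2 or 3 and 6 with the background term, where the list median was -0.92 against -0.61. The GTPase list had 2 falls without control mouse 2 or 3 or NPmut mouse 1 or 2. With the background term edgeR called 1 rise and 0 falls in it, where 16 had an unadjusted p under 0.05 without it and DESeq2 called 6 falls, and the list median went from -1.04 to -0.79.

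Immediate-early genes, which cells switch on within minutes of a stimulus, were high in 3 of the 4 NPmut mice. Of 33 genes tested, 18 rose (median log2 fold change of the list 1.47, all genes 0.014). The summed level was 2453, 2049, 1124, and 3316 CPM in NPmut mice 1 to 4 and 1106, 1043, and 1078 CPM in control mice 1 to 3. NPmut mouse 3 is close to the controls and the other 3 mice are far above them. Of the 18 rises, each exceeded every control in NPmut mice 1, 2, and 4, and 11 did in NPmut mouse 3, with medians of 2.32, 2.32, 0.40, and 2.85 log2 over the control mean in NPmut mice 1 to 4. These counts and medians describe genes picked as rises, whereas the summed level covers the whole list. What sets NPmut mouse 3 apart was not tested.

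**Figure D4:**
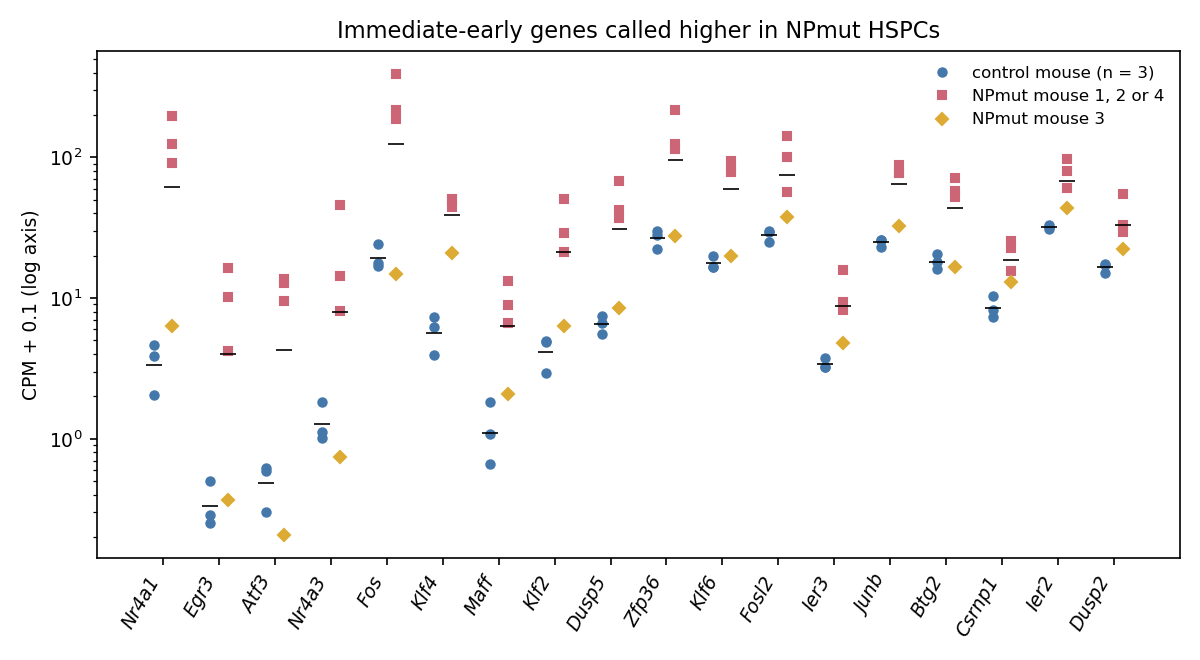
CPM in each mouse of the 18 immediate-early genes, of 33 tested, that were higher DEGs. List members that were not DEGs, such as Jun, are not drawn. NPmut mouse 3 is drawn as a diamond.

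Nr4a1, an orphan nuclear receptor, stood at 198, 90.3, 6.27, and 125 CPM in NPmut mice 1 to 4 against 1.95, 4.51, and 3.77 CPM in control mice 1 to 3 (log2 fold change 4.94, SE 1.03, adjusted p = 0.0143). Its paralog Nr4a3 was at 45.6, 7.98, 0.643, and 14.3 against 0.92, 1.73, and 1.02 CPM (log2 fold change 3.81, SE 1.01, adjusted p = 0.0333). Egr3, a zinc finger factor, measured 16.3, 4.09, 0.268, and 10 against 0.402, 0.185, and 0.153 CPM (log2 fold change 4.92, SE 1.07, adjusted p = 0.0113). NPmut mouse 3 lies under the controls for Nr4a3 and among them for Egr3. Atf3, a stress-induced leucine zipper factor, was at 9.4, 13.5, 0.107, and 12.7 against 0.517, 0.494, and 0.204 CPM (log2 fold change 4.46, SE 1.28, adjusted p = 0.0449). Klf4, a factor of monocyte differentiation, was at 44.4, 50.4, 20.9, and 50 against 3.85, 7.23, and 6.12 CPM (log2 fold change 2.85, SE 0.592, adjusted p = 0.0103). Jun, an AP-1 subunit, was not a DEG, at 240, 228, 86.2, and 464 against 148, 113, and 117 CPM (log2 fold change 1.02, SE 0.451, adjusted p = 0.184), with NPmut mouse 3 under the controls and the other NPmut mice above them.

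Nr4a1 was not a DEG without control mouse 1 or 3 or with limma voom (adjusted p = 0.0622 to 0.2). Nr4a3 was not a DEG without control mouse 1, 2, or 3 or NPmut mouse 1 or 2, with no filter, with the 7 libraries alone, or with limma voom (adjusted p = 0.051 to 0.386). Egr3 was not a DEG without control mouse 2 or 3 or with limma voom (adjusted p = 0.0525 to 0.336). Atf3 was not a DEG without control mouse 1, 2, or 3 or NPmut mouse 1, 2, or 4, with no filter, with the 7 libraries alone, with limma voom, or with sex as a term (adjusted p = 0.0553 to 0.445). Klf4 was not a DEG without control mouse 3 (adjusted p = 0.0517). Nr4a1, Nr4a3, Egr3, Atf3, and Klf4 missed the thresholds with the background term (adjusted p = 0.12 to 0.998). With that term their log2 fold changes were 3.08, -0.015, 1.18, 3.81, and 3.23, in that order. The count of 18 rises was 25 without NPmut mouse 3, 5 without control mouse 3, and 6 with limma voom. With the background term edgeR called 0 of the 33 tested, where 27 had an unadjusted p under 0.05 without that term and DESeq2 called 20, and the list median went from 1.47 to 0.44.

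The promoter of Nr4a1 is shown as the gene with the largest rise in the list, at chr15:101266596-101266895 in RefSeq on GRCm38.p6. It was searched on both strands for the AP-1 letters TGACTCA and the CRE letters TGACGTCA, which occur in 5.2% and 1.79% of all windows. Neither set of letters is in this window, so it holds no capitals.
Nr4a1: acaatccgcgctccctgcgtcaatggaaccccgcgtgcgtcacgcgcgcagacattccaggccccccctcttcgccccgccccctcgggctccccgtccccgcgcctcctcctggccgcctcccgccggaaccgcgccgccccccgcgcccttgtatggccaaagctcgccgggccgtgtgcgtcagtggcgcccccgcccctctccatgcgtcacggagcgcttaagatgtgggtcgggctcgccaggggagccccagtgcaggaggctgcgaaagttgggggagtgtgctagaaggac

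Some genes of the NF-kB system rose. Of 32 genes tested, 12 rose (median log2 fold change of the list 0.90, all genes 0.014). Nfkbia, the inhibitor that NF-kB itself induces, measured 57.6, 74.7, 43.3, and 67.3 CPM in NPmut mice 1 to 4 against 16.6, 17, and 12.2 CPM in control mice 1 to 3 (log2 fold change 1.99, SE 0.195, adjusted p = 6.77e-05). Tnf, the cytokine tumor necrosis factor, measured 21.6, 16.6, 5.63, and 17.8 against 2.7, 3.65, and 2.34 CPM (log2 fold change 2.41, SE 0.38, adjusted p = 0.00136). Slc2a6, a lysosomal sugar transporter, was at 17.5, 19.6, 9.76, and 9.84 against 3.74, 2.41, and 2.85 CPM (log2 fold change 2.24, SE 0.358, adjusted p = 0.00146). These 3 genes have no overlap, and NPmut mouse 3 is lowest of its group for Tnf. Rela, the main activating subunit, was not a DEG (log2 fold change 0.25, adjusted p = 0.109). Ccl3, a chemokine for monocytes, was at 10.3, 15.9, 1.07, and 17.8 against 1.72, 0.68, and 1.58 CPM (log2 fold change 3.06, SE 0.699, adjusted p = 0.0136). Il1b, the cytokine interleukin 1 beta, was at 5.91, 6.86, 0.214, and 4.07 against 0.747, 0.556, and 0.561 CPM (log2 fold change 2.77, SE 0.8, adjusted p = 0.0396). NPmut mouse 3 lies among the controls for Ccl3 and under them for Il1b.

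Ccl3 was not a DEG without control mouse 2 or 3, with the 7 libraries alone, or with limma voom (adjusted p = 0.0562 to 0.2). Il1b was not a DEG without control mouse 1, 2, or 3 or NPmut mouse 1, 2, or 4, with the 7 libraries alone, or with limma voom (adjusted p = 0.0507 to 0.371). Tnf, Ccl3, and Il1b missed the thresholds with the background term (adjusted p = 0.15 to 0.516). The list had 6 rises without control mouse 2 or 3 and 2 with the background term, where its median was 0.29.

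Chemokine receptors of monocytes and stem cells were among 7 rises of 18 chemokine genes tested (median log2 fold change 1.46). Of all genes, 2.32% were higher. Ccr2, the receptor that draws monocytes from marrow, measured 155, 187, 108, and 77.6 CPM in NPmut mice 1 to 4 against 58.9, 40.4, and 48 CPM in control mice 1 to 3 (log2 fold change 1.43, SE 0.248, adjusted p = 0.00293). Cxcr4, which holds cells in marrow, measured 109, 167, 173, and 89.4 against 67.2, 66.2, and 48.9 CPM (log2 fold change 1.15, SE 0.236, adjusted p = 0.0075). All NPmut mice are above the controls. Ccr1, a receptor of Ccl3, rose (log2 fold change 1.64, adjusted p = 0.027), as did the chemokine Ccl6 (log2 fold change 1.25, adjusted p = 0.0179). Ccr1 was not a DEG without control mouse 2 or 3 or NPmut mouse 1 or 2 or with the 7 libraries alone (adjusted p = 0.0542 to 0.0996). Ccl6 was not a DEG without control mouse 1, 2, or 3 (adjusted p = 0.0507 to 0.0813). Ccr1 and Ccl6 missed the thresholds with the background term (adjusted p = 0.0673 to 0.217). Without control mouse 3 the list had 2 rises, and with the background term 4.

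Of 41 cytokine receptor genes tested, 9 rose and 3 fell (median log2 fold change 0.47), beside 2.32% higher and 3.69% lower of all genes. Il6st, the shared signal chain gp130, measured 233, 173, 179, and 167 CPM in NPmut mice 1 to 4 against 74.4, 69.1, and 63.3 CPM in control mice 1 to 3 (log2 fold change 1.45, SE 0.17, adjusted p = 0.000217). Il10ra, the ligand-binding chain for interleukin 10, measured 37.8, 40.4, 29.6, and 31.6 against 12.5, 6.8, and 10.5 CPM (log2 fold change 1.81, SE 0.221, adjusted p = 0.000292). Lifr, which pairs with Il6st to bind leukemia inhibitory factor, was at 7.18, 3.66, 18.4, and 4.41 against 2.01, 1.54, and 1.02 CPM (log2 fold change 2.47, SE 0.556, adjusted p = 0.0121). The groups are separate in these genes. Il6ra, Il1r1, Il3ra, and Csf2rb, chains for interleukins 6, 1, and 3 and related growth factors, were also among the rises. Il27ra, the interleukin 27 receptor, fell (log2 fold change -1.38, adjusted p = 0.00493). Lifr was not a DEG without control mouse 3 (adjusted p = 0.07). Il27ra missed the thresholds with the background term (adjusted p = 0.131). Rises were 5 without control mouse 3. The 3 falls were 1 without control mouse 1 or 3 or NPmut mouse 1. With the background term edgeR called 8 rises and 0 falls, where 29 had an unadjusted p under 0.05 without it and DESeq2 called 3 falls.

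Of 37 genes tested on a list of p53 targets, 5 rose and 3 fell (median log2 fold change 0.025). Of all genes, 2.32% were higher and 3.69% lower. Cdkn1a, the cell cycle inhibitor p21, measured 14.8, 10.2, 5.31, and 13.1 CPM in NPmut mice 1 to 4 against 4.54, 3.4, and 3.01 CPM in control mice 1 to 3 (log2 fold change 1.57, SE 0.378, adjusted p = 0.0161). Ccnd1, the cell cycle gene of cyclin D1, measured 51.2, 33.7, 72.2, and 35.5 against 17.6, 14.1, and 14.1 CPM (log2 fold change 1.66, SE 0.296, adjusted p = 0.00352). NPmut mice lie above controls in both, and whether p53 acts on Ccnd1 in these cells was not tested. Zmat3, a p53 target that shapes RNA splicing, was at 2.27, 1.12, 3.32, and 2.04 against 7.82, 5.62, and 9.38 CPM (log2 fold change -1.80, SE 0.366, adjusted p = 0.0062). Trp53cor1, the noncoding RNA next to Cdkn1a, fell (log2 fold change -1.64, adjusted p = 0.0211). Mdm2, the ligase that degrades p53 (log2 fold change 0.27, adjusted p = 0.257), was not a DEG. Pmaip1, the cell death activator NOXA, was at 47.5, 52.2, 3.59, and 42 against 2.59, 2.29, and 2.24 CPM (log2 fold change 3.93, SE 0.712, adjusted p = 0.00514), and NPmut mouse 3 is again the lowest of its group. In the BCL-2 family Bmf, another activator of cell death, rose (log2 fold change 3.00, adjusted p = 0.0098).

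Cdkn1a was not a DEG without control mouse 2 or 3 (adjusted p = 0.0634 to 0.0822). Trp53cor1 was not a DEG without control mouse 1 or 3 or with the 7 libraries alone (adjusted p = 0.0573 to 0.0873). Pmaip1 was not a DEG with limma voom (adjusted p = 0.159). Bmf was not a DEG without control mouse 3 (adjusted p = 0.0597). Cdkn1a, Ccnd1, Zmat3, Trp53cor1, and Pmaip1 missed the thresholds with the background term (adjusted p = 0.0531 to 0.512). The p53 list had 3 rises without control mouse 2 or 3. With the background term edgeR called 0 in either direction, where 14 had an unadjusted p under 0.05 without it and DESeq2 called 6 rises and 3 falls. The mutated genes themselves were not DEGs: Nras measured 57.8, 50.4, 58, and 52.2 CPM in NPmut mice 1 to 4 against 57.2, 61.4, and 62 CPM in control mice 1 to 3 (log2 fold change -0.14, SE 0.095, adjusted p = 0.379), and Trp53 measured 95, 106, 97.5, and 78 against 109, 123, and 111 CPM (log2 fold change -0.28, SE 0.104, adjusted p = 0.103). Counts per gene do not separate the mutant from the wild-type allele.

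Summed list levels show the size of these shifts in each mouse. The stem cell and megakaryocyte sums are lower in each NPmut mouse than in each control, the monocyte and MHC class II sums higher, and the immediate-early sum high in 3 NPmut mice.

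**Figure D5:**
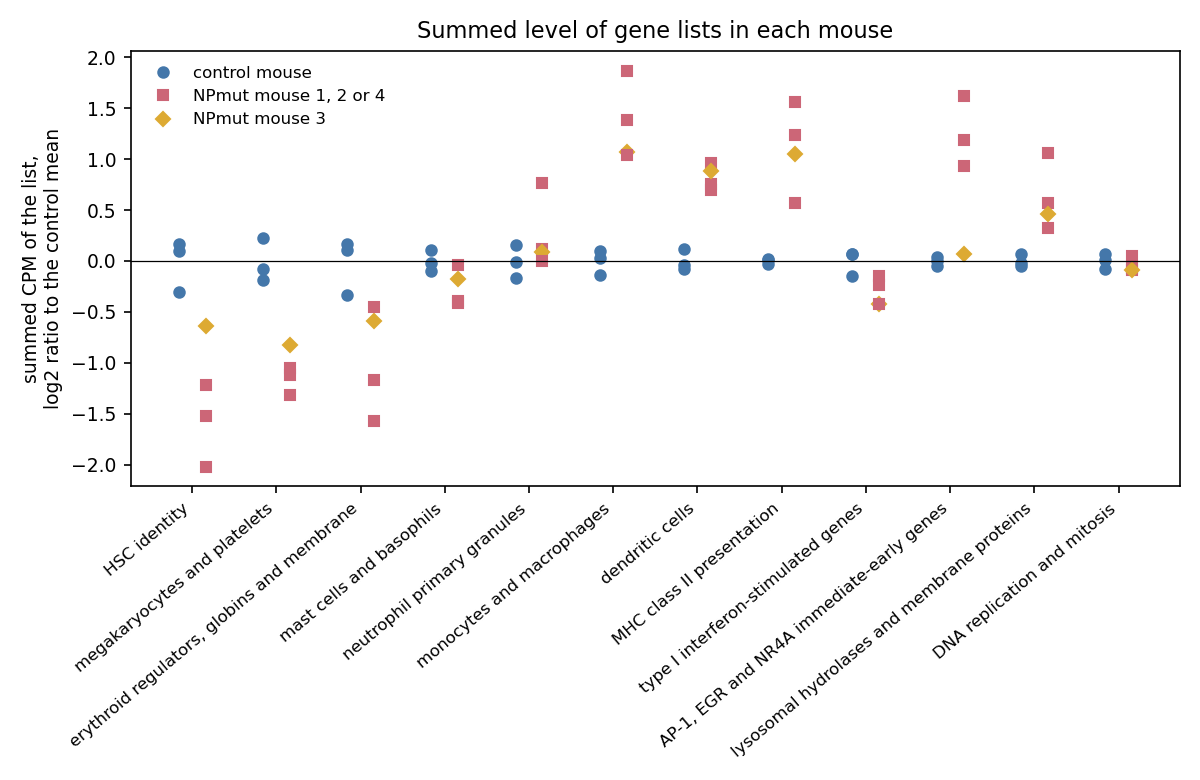
Summed CPM of selected gene lists in each of the 7 mice, as a log2 ratio to the control mean.

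Calls for cell division and metabolism are read beside 2.32% higher and 3.69% lower of all genes. Of 50 genes of DNA replication and mitosis, 0 passed in edgeR and 0 in DESeq2, and 9 had an unadjusted p under 0.05, against 4561 of all 17795 genes. Mki67, a chromosome coat protein of dividing cells, was at 2078, 1248, 1971, and 2734 CPM in NPmut mice 1 to 4 against 2339, 2467, and 2294 CPM in control mice 1 to 3 (log2 fold change -0.24, SE 0.185, adjusted p = 0.457), and the groups overlap. Of 23 glycolysis genes 1 rose, Ldhb, a lactate dehydrogenase chain (log2 fold change 1.25, adjusted p = 0.0458). Of 23 cholesterol genes 2 rose, among them Insig1, which holds back sterol synthesis (log2 fold change 1.07, adjusted p = 0.0238). Ldhb was not a DEG without control mouse 1, 2, or 3 or NPmut mouse 2 or 4, with library totals, or with limma voom (adjusted p = 0.0627 to 0.155). Insig1 was not a DEG without control mouse 1, 2, or 3 or NPmut mouse 2 or 4, with library totals, with the 7 libraries alone, or with limma voom (adjusted p = 0.0337 to 0.0948, fold change under 2 where p passed). Ldhb and Insig1 missed the thresholds with the background term (adjusted p = 0.205 to 0.242). The cholesterol list had 0 rises without control mouse 2 or 3 or NPmut mouse 4, and 3 without NPmut mouse 3. It also had 0 with the 7 libraries alone, with limma voom, or with the background term.

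Lysosomal genes gave 9 rises of 37 tested (median log2 fold change 0.55), beside 2.32% higher of all genes. Ctsh, a cathepsin, measured 58.8, 108, 39.5, and 49.2 CPM in NPmut mice 1 to 4 against 13.9, 16.3, and 13.7 CPM in control mice 1 to 3 (log2 fold change 2.13, SE 0.376, adjusted p = 0.00379). Psap, the precursor of proteins that help digest sphingolipids, measured 398, 497, 323, and 258 against 163, 160, and 162 CPM (log2 fold change 1.19, SE 0.204, adjusted p = 0.0024). In both, NPmut mouse 2 is highest and the groups do not overlap. Scpep1, a serine carboxypeptidase, rose (log2 fold change 1.70, adjusted p = 0.00053). On the heat shock and unfolded protein response list, 2 of 33 genes fell (3.69% of all genes did). They were Hsph1, a cochaperone of HSP70 (log2 fold change -1.28, adjusted p = 0.00609), and Asns, asparagine synthetase (log2 fold change -1.19, adjusted p = 0.0353). Hsph1 was not a DEG without control mouse 1 (adjusted p = 0.0327, fold change under 2). Asns was not a DEG without control mouse 2 or 3 or NPmut mouse 1 or 2, with no filter, with the 7 libraries alone, with limma voom, or with sex as a term (adjusted p = 0.0598 to 0.121). Hsph1 and Asns missed the thresholds with the background term (adjusted p = 0.175 to 0.291). Without control mouse 3 the lysosomal list had 5 rises.

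Adhesion and guidance receptors split by member. Of 34 guidance genes 5 rose and 8 fell (median log2 fold change -0.54). Of 39 adhesion genes 5 rose and 7 fell (median -0.22). Of all genes, 2.32% were higher and 3.69% lower. Itga1, an integrin chain for collagen, measured 112, 83.5, 76.1, and 109 CPM in NPmut mice 1 to 4 against 12.3, 25.9, and 20.1 CPM in control mice 1 to 3 (log2 fold change 2.29, SE 0.349, adjusted p = 0.00158). Ephb2, a receptor for ephrins, measured 22.9, 12.7, 28.8, and 12.9 against 6.55, 5.44, and 3.62 CPM (log2 fold change 1.90, SE 0.336, adjusted p = 0.00295). Plxna4, a semaphorin receptor, was at 0.556, 0.54, 0.643, and 0.0848 against 3.28, 3.4, and 4.38 CPM (log2 fold change -2.93, SE 0.4, adjusted p = 0.00053). The groups are apart in each gene, upward for Itga1 and Ephb2 and downward for Plxna4. Epha2, an ephrin receptor kinase, rose (log2 fold change 3.39, adjusted p = 0.00053), and Unc5a, a netrin receptor, fell (log2 fold change -2.19, adjusted p = 0.000653). Esam, an adhesion molecule of endothelium and stem cells, fell (log2 fold change -2.78, adjusted p = 0.00507). Itga1, Unc5a, and Esam missed the thresholds with the background term (adjusted p = 0.0531 to 0.0754). Guidance genes gave 3 rises without control mouse 3, 5 falls without control mouse 2 or 3, and 2 of each with the background term. Adhesion genes gave 3 rises without control mouse 2 or 3 or NPmut mouse 1 or 2, 4 falls without control mouse 1, and 3 rises and 1 fall with the background term.

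Matrix genes had 1 rise and 9 falls of 32 tested (median log2 fold change -1.11), beside 2.32% higher and 3.69% lower of all genes. Fn1, fibronectin, measured 35.7, 30, 14.7, and 67.5 CPM in NPmut mice 1 to 4 against 8.91, 4.08, and 6.22 CPM in control mice 1 to 3 (log2 fold change 2.52, SE 0.45, adjusted p = 0.00399). Emid1, a secreted protein with a collagen stretch, measured 3.44, 3.32, 6.33, and 1.78 against 15.6, 9.08, and 10.4 CPM (log2 fold change -1.64, SE 0.327, adjusted p = 0.00576). Fn1 is higher and Emid1 lower in all NPmut mice. Col16a1, a collagen of fibril surfaces, fell (log2 fold change -2.91, adjusted p = 0.00132), and Col4a1 and Col4a2, the collagen chains of basement membranes, were also among the falls. Of 8 stromal and endothelial markers tested, 1 rose and 3 fell, with sums of 228, 205, 211, and 226 CPM in NPmut mice 1 to 4 and 153, 118, and 139 CPM in control mice 1 to 3, and Pecam1 is the most abundant of them per length. Col1a2, a collagen of fibroblasts (log2 fold change -2.95, adjusted p = 0.00527), Kdr, a VEGF receptor (log2 fold change -2.91, adjusted p = 0.019), and Emcn, an endothelial sialomucin (log2 fold change -2.35, adjusted p = 0.0156), were the falls. The part of such cells in the matrix result was not tested. Col1a2 was not a DEG with limma voom (adjusted p = 0.0816). Kdr and Emcn were not DEGs without control mouse 3 or with the 7 libraries alone (adjusted p = 0.0743 to 0.102). Fn1, Emid1, Col1a2, and Emcn missed the thresholds with the background term (adjusted p = 0.0787 to 0.311). With the background term the matrix list had 4 falls.

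Growth genes of fetal life and imprinted genes gave 1 rise and 5 falls of 17 tested (median log2 fold change -0.48). Of all genes, 2.32% were higher and 3.69% lower. Igf2bp3, a fetal RNA-binding protein, measured 4.09, 3.12, 1.45, and 1.95 CPM in NPmut mice 1 to 4 against 0.345, 0.0618, and 0.51 CPM in control mice 1 to 3 (log2 fold change 3.07, SE 0.649, adjusted p = 0.00784). Igf2r, the receptor that clears IGF2, measured 11.7, 4.28, 16.1, and 19.6 against 29.7, 43.4, and 46.6 CPM (log2 fold change -1.65, SE 0.374, adjusted p = 0.0146). All NPmut mice lie above the controls for Igf2bp3 and under them for Igf2r. Meg3 and Rian, imprinted noncoding RNAs of 1 cluster, Grb10, and Sgce, a sarcoglycan (log2 fold change -2.04, adjusted p = 0.0387), were the other falls. Of 11 Hox genes 2 fell, Hoxb2 (log2 fold change -2.51, adjusted p = 0.0153) and Hoxb6, beside 3.69% lower of all genes. Hoxa9, a homeodomain factor often high in leukemia, was not a DEG (log2 fold change -0.11, adjusted p = 0.672). Falls in the Hox list were 1 without control mouse 1 or 3 or NPmut mouse 1 or 4. They were 3 without NPmut mouse 3 and 0 with the background term. Igf2r was not a DEG without control mouse 3, with no filter, or with the 7 libraries alone (adjusted p = 0.0503 to 0.0651). Hoxb2 was not a DEG without control mouse 2 (adjusted p = 0.0741). Sgce was not a DEG without control mouse 1, 2, or 3 or NPmut mouse 1 or 4 or with the 7 libraries alone (adjusted p = 0.0601 to 0.147). Igf2bp3, Igf2r, Hoxb2, and Sgce missed the thresholds with the background term (adjusted p = 0.0833 to 0.517). Without control mouse 1 the fetal and imprinted list had 2 falls, and with the background term 1. The median of that list was -1.07 without control mouse 1 and -0.93 without control mouse 3. With DESeq2, which tested 27 of its genes, it was -1.50.

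Transcription factors of blood cell fate changed both ways, with 11 rises and 8 falls of 51 tested (median log2 fold change 0.0097). Of all genes, 2.32% were higher and 3.69% lower. Hopx, a homeodomain protein without DNA contact, measured 4.25, 6.32, 5.85, and 5 CPM in NPmut mice 1 to 4 against 0.69, 0.68, and 2.09 CPM in control mice 1 to 3 (log2 fold change 2.19, SE 0.441, adjusted p = 0.00583). NPmut mice are above the controls. Klf2, a factor of quiescence, measured 21, 29.1, 6.27, and 50.7 against 4.89, 2.84, and 4.74 CPM (log2 fold change 2.68, SE 0.666, adjusted p = 0.0241). Myb, a factor of progenitor growth, was at 982, 956, 1092, and 1375 against 1349, 1240, and 1375 CPM (log2 fold change -0.26, SE 0.128, adjusted p = 0.215). Of 45 epigenetic and leukemia driver genes 1 was a DEG, Flt3, against 6.01% of all genes. Klf2 was not a DEG without control mouse 1, 2, or 3 or NPmut mouse 2, with no filter, or with limma voom (adjusted p = 0.0657 to 0.0919). Hopx and Klf2 missed the thresholds with the background term (adjusted p = 0.0891 to 0.418). Without control mouse 3 the fate factor list had 6 rises and 2 falls, and with the background term 4 and 2.

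Lists for other blood cells that the gate should remove were summed as well. Mature T and NK cell genes, with 4 of 13 tested, summed to 41.8, 60.5, 39.5, and 45.9 CPM in NPmut mice 1 to 4 and 69.8, 67.3, and 54.9 CPM in control mice 1 to 3, most of it from Nkg7, and 1 had an unadjusted p under 0.05. Mature B and plasma cell genes, with 6 tested, summed to 121, 156, 109, and 118 CPM in NPmut mice 1 to 4 and 84.1, 89.3, and 92 CPM in control mice 1 to 3, most of it from Xbp1, and 3 had an unadjusted p under 0.05. Eosinophil genes, with 5 tested, summed to 95.8, 56, 36.9, and 31.5 CPM in NPmut mice 1 to 4 and 34.5, 44.7, and 32.9 CPM in control mice 1 to 3. The eosinophil sum was highest in NPmut mouse 1 and the B cell sum in NPmut mouse 2, and their part in the results above was not tested.

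The comparison rests on 4 and 3 mice, and edgeR's test used the spread of all 13 libraries. The stage of disease, pI-pC and genotype cannot be told apart in it.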

How the data were processed

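RNA-seq read counts were deposited by the authors as raw counts per gene for 13 libraries. Per the processing notes of the submitters, reads were aligned with STAR 2.6.1d to GRCm38.p6, and R 3.6.1 and DESeq2 1.26.0 were used downstream. The counting program and strand setting are not given in the sources used here. The table held 54838 genes, of which 54809 are in GENCODE M21 and 29, with 0.0032% of the counts, are not, with 0 unnamed genes and 0 columns without a sample. Here edgeR 4.0.16 in R 4.3.3 was fitted to all 13 libraries with 4 group means, TMM factors, filterByExpr and robust quasi-likelihood, and the NPmut minus control contrast was adjusted by Benjamini-Hochberg over 17795 genes. The SE is the size of the log2 fold change divided by the square root of F. The procedure was tested on simulated data. Depth ran from 12576174 to 29124022 counts in the 7 libraries compared, so 1 CPM is about 12 counts in the shallowest. The genotype label of the 3 NrasG12D libraries reads G21D, was taken as a typing error, and has no effect on the groups.

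Genes were named by rule: the 12 largest rises and falls and the 8 smallest p-values each way among protein-coding DEGs without overlap, at an average log2 CPM of at least 1 and not named in the paper, then up to 4 DEGs each way and the 3 most abundant genes of each of 40 lists. Members and lists were chosen with earlier results of these data known. Other list members, given with no value, were picked with their values in view. The alternative fits used library totals, DESeq2 1.42.0, RLE factors, no filter, at least 10 counts in every library, the 7 libraries alone, a replicate block, limma 3.58.1 voom with sample weights, sex, the receptor background, and leaving out each mouse.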

Additional observations from a re-analysis of the deposited data

Results flagged for a closer look

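Of 238 genes checked for a mouse that stands apart from the other 3 of its group by Dixon's test, 11 were flagged, no more than chance gives at about 1 in 20 groups. NPmut mouse 2 was highest in 8: Aldoa at 455 CPM (others 275 to 280), Gbp3 at 183 (96 to 109), Ifi30 at 55.2 (31.4 to 34.4), Irf5 at 63.7 (39.8 to 43.7), Lgals3 at 28.8 (7.88 to 11.2), Nfe2 at 111 (87.7 to 89.9), Pkm at 521 (361 to 369), and Srgn at 663 (359 to 375). NPmut mouse 3 was highest in Ighd at 1.72 CPM (1.52 to 1.54). NPmut mouse 4 was highest in Plxnd1 at 139 CPM (101 to 106) and lowest in Cox6a2 at 0.594 CPM (3.18 to 3.51). These values are a description with no test beyond the flag.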

How the results depend on the processing

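The counts of 413 higher and 656 lower DEGs became 487 and 901 with DESeq2, 402 and 662 with RLE factors, 311 and 785 with library totals, 542 and 1026 with no filter on low counts, 318 and 320 with at least 10 counts in every library, 305 and 346 with the 7 libraries alone, 396 and 698 with limma voom, 411 and 626 with sex as a term, and 338 and 230 with the receptor background as a term. Leaving out 1 mouse gave 217 to 494 higher and 369 to 758 lower. With replicate numbers as a block (samples paired by number) the counts were 447 and 842, the immediate-early list had 8 rises and not 18, and the red cell list 17 falls and not 8; Nr4a1, Nr4a3, Klf2, Ccl3, Il1b, Clec4a2, Ldhb, and Insig1 were not DEGs (adjusted p = 0.0546 to 0.133). The correlations of same-numbered samples were -0.0422, 0.257, and -0.0386, and not every sample correlated best with its own number, so the numbers were not treated as pairs. Of 151 named DEGs, 150 were kept with DESeq2, 127 with voom, 70 with the background term, and 97 without control mouse 3. Directions turned with the background term for Gm11168 (log2 fold change 0.01), Lilrb4a (-0.47), and Nr4a3 (-0.015), and the cause was not tested. Among other calls lost with that term, log2 fold changes shrank for some, such as Fn1 (1.16 against 2.52). They stayed about as large for others, such as Tek (-3.34 against -3.40), or grew, as for Klf1 (-2.52 against -1.66). Without the filter edgeR gave 88.3% of genes an infinite prior, so its p-values there rest on the shared trend and not on each gene's own spread. Genes under 1 CPM rest on few counts in the shallowest library, so falls to near 0 there are limited by depth.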

Other observations

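Some list members varied within the groups more than between them. Thbs1, thrombospondin 1, was at 52.6, 20.2, 0.483, and 30.5 CPM in NPmut mice 1 to 4 against 3.1, 4.14, and 177 CPM in control mice 1 to 3, with control mouse 3 far above the rest. S100a9, a calcium-binding protein of neutrophils, was at 36.4, 93.3, 3.54, and 87.2 against 91.4, 19, and 22.8 CPM, with values spread in both groups. Prg2, the major basic protein of eosinophils, was at 44.5, 16.6, 6.11, and 6.11 against 4.08, 7.04, and 6.78 CPM, with NPmut mouse 1 highest.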
